A study of Mus musculus with 10 samples.

Results

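DZNep (3-deazaneplanocin A) was compared with its solvent DMSO in mouse prostate organoids that overexpress MYC. The comparison covers 11143 genes, those of 24043 in the table with a mean of at least 1 RPKM (reads scaled to transcript length and library size) over 3 DMSO and 3 DZNep libraries, out of 10 libraries in the study. The account looks beyond the interferon, class I and p53 lists, which hold 189 of these genes and leave 10954. The lists need not hold every gene that responds to interferon, and such a response outside them was not tested. The organoids, cultures of prostate epithelial cells grown as small hollow or solid bodies, were grown from the dorsal-lateral prostate of 8-week-old mice (C57BL/6). All 6 libraries, the DMSO controls included, share the cMYC overexpression, floxed EZH2 alleles, the inducible PSA-CreERT2 transgene, which expresses a tamoxifen-dependent recombinase from the promoter of prostate specific antigen, and a medium with 10 nM of the synthetic androgen R1881. The control group received DMSO and the treated group 1 µM DZNep, neither is labelled as having received tamoxifen, and RNA was taken 3 days later. The stated purpose was to compare gene expression with and without inhibition of EZH2. The sources used here do not state how many mice or separate cultures stand behind the libraries. The p-values therefore measure how far these libraries vary, and that variation may be technical.

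DZNep is an adenosine analogue that blocks S-adenosylhomocysteine hydrolase. S-adenosylhomocysteine is the product that every methyl transfer from S-adenosylmethionine leaves behind, and it slows methyltransferases when it builds up. EZH2, the enzyme of Polycomb repressive complex 2 that methylates histone H3 at lysine 27, is one such methyltransferase among many. The prostate epithelium has basal cells next to the basement membrane, marked by KRT5, KRT14 and TRP63, and luminal cells, marked by KRT8 and KRT18. Keratins are paired filament proteins whose sets differ between simple, stratified and cornifying epithelia.

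Epithelial markers of both layers were present in every library. The summed RPKM of 14 luminal markers was 4617 to 4788 in DMSO and 4616 to 4843 in DZNep, and probasin (PBSN), the defining secretory product of the mouse prostate, was listed at 0 in all 6. The sum of 12 basal markers was 5307 to 5555 in DMSO and 7071 to 7309 in DZNep, and abundant keratins carry most of it. Summed markers of other cell types were lower: 13 fibroblast and smooth muscle markers summed to 2.67 to 3.49 RPKM in DMSO and 5.83 to 7.02 RPKM in DZNep, 10 endothelial markers to 2.76 to 3.40 and 2.51 to 3.09 RPKM, and 11 neuroendocrine markers to 6.53 to 7.77 and 4.51 to 6.02 RPKM. The 19 leukocyte markers summed to more, 45.2 to 51.9 RPKM in DMSO and 66.1 to 68.2 RPKM in DZNep. The RPKM of a library summed to 469455 to 512726 over all genes, 15101 to 15404 genes were above 0, and the read depth cannot be recovered from these values. The first principal component (38.8% of the variance) separated the DMSO from the DZNep libraries, and the second (20.3%) spread the 3 DMSO libraries.

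With DZNep 1850 genes rose and 1238 fell, or 16.6% and 11.1% of the genes tested and 27.7% in either direction. The test was limma's moderated linear model on log2(RPKM + 1), with Benjamini-Hochberg adjusted p under 0.05, and every adjusted p below is of this kind. A log2 change on this scale is smaller than the change in RPKM for genes near 1 RPKM. Quantile normalization gave 1635 that rose and 1635 that fell, so the balance of rises and falls depends on the scaling; the median change over all genes was 0.01 without and -0.01 with it. Without DMSO 2 the counts were 953 and 529, without DMSO 3 1188 that rose, and without DZNep 2 1042 and 680. The DZNep libraries all lay above the DMSO libraries for 26.1% of genes and all below for 19.4%. Genes named below as changed were picked among called genes. For them, libraries that do not overlap are therefore no further result. A gene that also passed in all 6 fits with 1 library left out is called stable here, and 7.92% of genes were stable rises and 4.42% stable falls. Outside the 3 excluded lists 1721 genes rose and 1234 fell, of which 43 rose and 13 fell by at least 2-fold on the log2 scale used. The plot of shares by list sets 25 gene groups against these backgrounds.

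**Figure D1:**
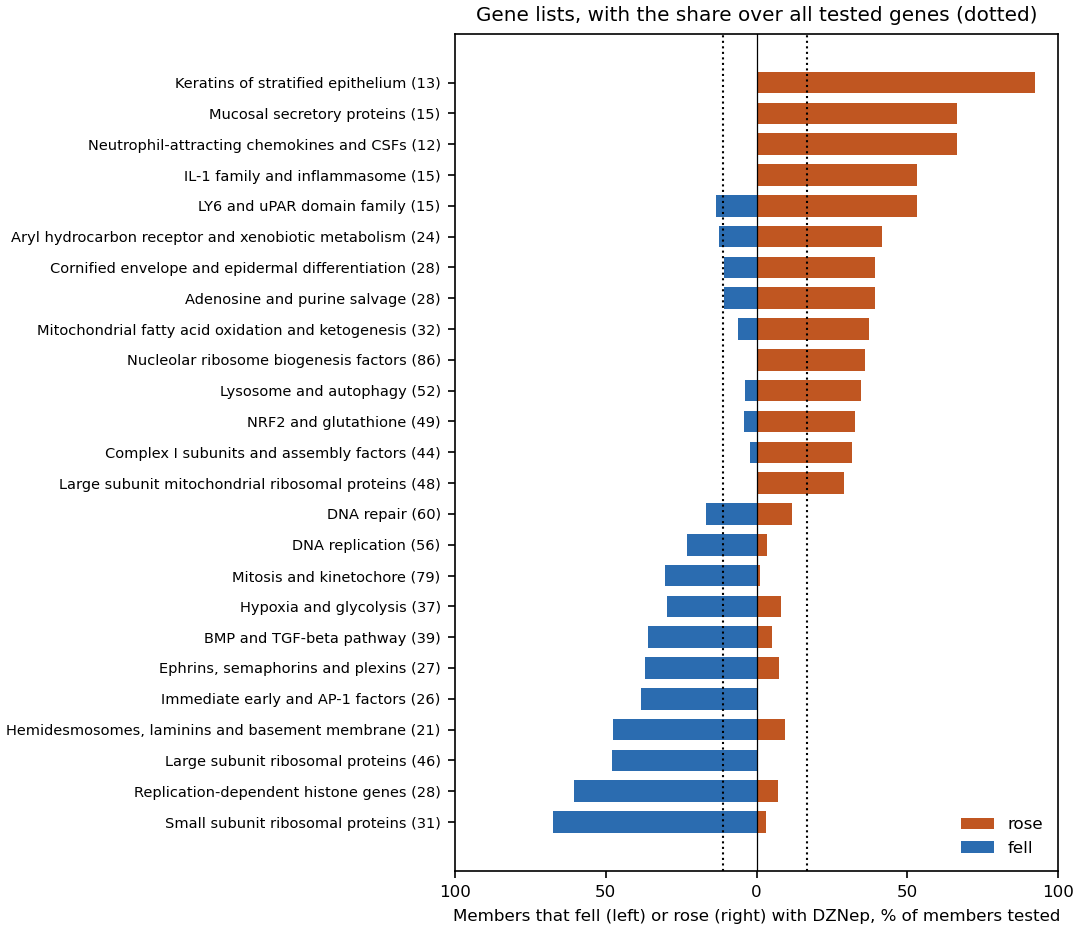
Share of tested members of 25 gene lists that rose (right, red) or fell (left, blue) with DZNep at adjusted p under 0.05, in percent, with the number tested in brackets. Dotted lines give the shares over all 11143 genes, 16.6% and 11.1%; keratins of stratified epithelium and chemokines lie far to the right, and histone and ribosomal protein genes to the left.

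Outside the interferon, class I and p53 lists, the steepest rises were in an adhesion molecule, secreted proteins and keratins. MCAM, a cell adhesion molecule of the immunoglobulin family also known as CD146, was at 0.873, 0.673 and 0.86 RPKM in the DMSO libraries and 7.25, 7.16 and 7.18 RPKM in the DZNep libraries. MCAM differed by 2.19 (log2), SE 0.0643, adjusted p = 1.52e-06. The DZNep libraries were nearly equal and far above the DMSO libraries. SCGB1A1, the secretoglobin of airway club cells, was at 7.43, 7.22 and 8.22 RPKM in the DMSO libraries and 31.9, 29 and 33.6 RPKM in the DZNep libraries. SCGB1A1 differed by 1.91 (log2), SE 0.0689, adjusted p = 3e-06. S100G, a calcium-binding protein of absorbing epithelia, was listed at 0 in all 3 DMSO libraries and at 2.25, 2.88 and 2.93 RPKM in the DZNep libraries, so no fold is given. PPBP, the platelet chemokine CXCL7, was at 36.6, 40.6 and 32.1 RPKM in the DMSO libraries and 134, 132 and 116 RPKM in the DZNep libraries, and SAA3, an acute phase protein, at 0.499, 0.0808 and 0 RPKM in the DMSO libraries and 3.19, 2.54 and 2.82 RPKM in the DZNep libraries. WFDC12, a whey acidic protein domain protease inhibitor, rose from 0.633 ± 0.236 to 4 ± 0.552 RPKM, and LGALS7, the galectin of stratified epithelia, from 10.04 ± 2.7 to 31.8 ± 4.94 RPKM. Only genes whose groups did not overlap entered this ranking, so their separation is not a result. MCAM, S100G, SAA3 and WFDC12 had DMSO means under 1 RPKM and passed the filter only through the DZNep libraries. AW112010, a transcript known from immune cells, rose from 1.1 ± 0.303 to 5.14 ± 0.901 RPKM, and means are given with SD over 3 libraries here and below.

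Histone genes and a few unrelated genes made up the steepest falls. HIST1H3C was at 4.37, 3.38 and 4.27 RPKM in the DMSO libraries and 0.984, 0.72 and 1.68 RPKM in the DZNep libraries. HIST1H3C differed by -1.25 (log2), SE 0.16, adjusted p = 0.00152. HIST1H3A fell from 2.92 ± 0.666 to 0.763 ± 0.088 RPKM, HIST1H2AI from 2.2 ± 0.359 to 0.596 ± 0.214 RPKM and HIST1H3H from 2.12 ± 0.358 to 0.574 ± 0.148 RPKM. SMIM4, a small mitochondrial membrane protein, was at 20.3, 17.6 and 18.3 RPKM in the DMSO libraries and 6.65, 7.65 and 7.57 RPKM in the DZNep libraries. SMIM4 differed by -1.25 (log2), SE 0.0713, adjusted p = 3e-05. TNNI2, the inhibitory troponin of fast skeletal muscle, was at 37.8, 33.7 and 34.7 RPKM in the DMSO libraries and 15.5, 16.9 and 15.9 RPKM in the DZNep libraries. TNNI2 differed by -1.09 (log2), SE 0.0591, adjusted p = 2.54e-05. The muscle gene DES was listed at 0 in every library. TEX26, a testis expressed gene, fell from 2.88 ± 0.222 to 0.912 ± 0.135 RPKM. The beta-defensin gene DEFB2 was at 3.48, 3.65 and 3.6 RPKM in the DMSO libraries and 2.2, 0.533 and 1.51 RPKM in the DZNep libraries, and its fall was not called in fits without 1 library (adjusted p = 0.0601 without DMSO 2, adjusted p = 0.0513 without DMSO 3). These genes too were picked among those whose groups did not overlap, so their separation is not a result. HIST1H3A, HIST1H2AI, HIST1H3H and TEX26 had DZNep means under 1 RPKM and passed the filter only through the DMSO libraries. The other steep falls were in HR, HIST1H2BJ, RAB26OS and FOSB, drawn in the plot of the largest changes.

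**Figure D2:**
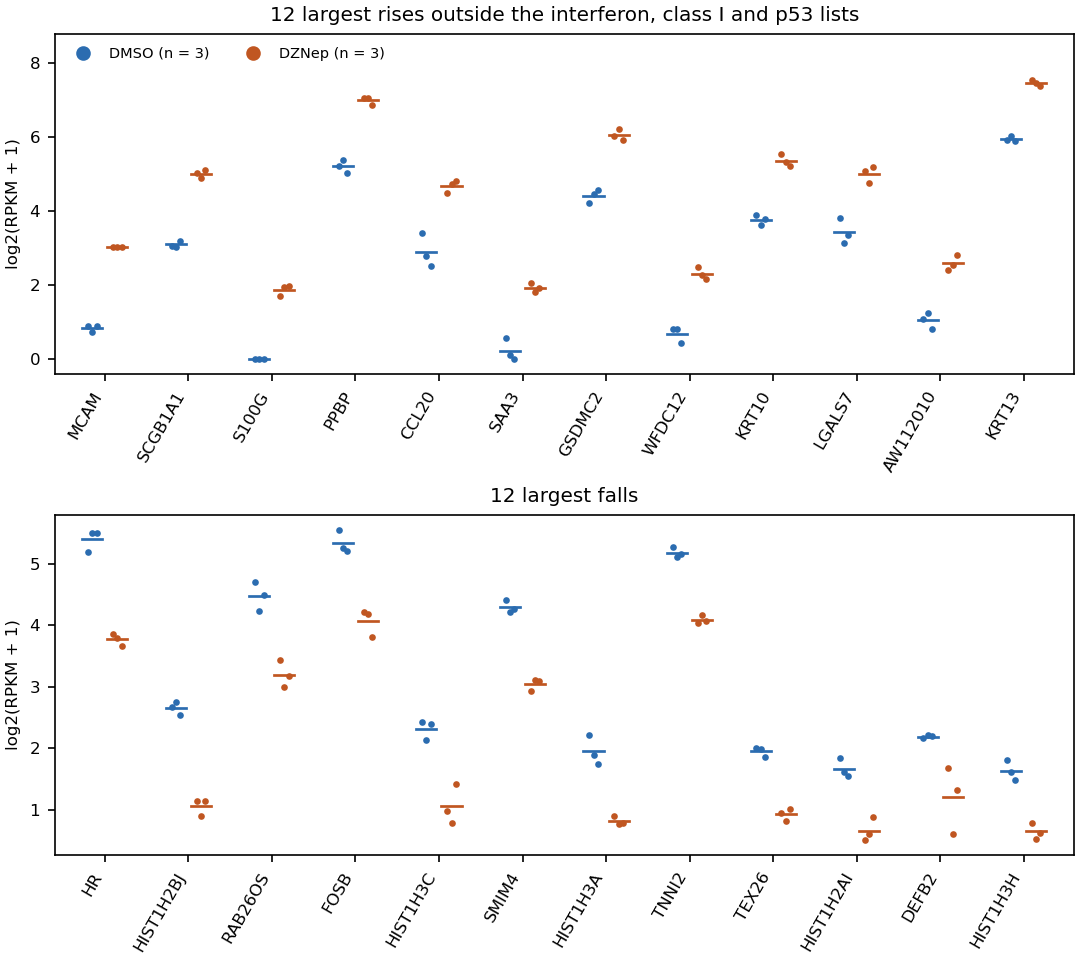
log2(RPKM + 1) in each library for the 12 genes with the largest rises (top) and the 12 with the largest falls (bottom) among called genes outside the interferon, class I and p53 lists whose groups do not overlap. Points are single libraries (DMSO blue, DZNep red) and bars are group means; MCAM goes from means of 0.802 to 7.19 RPKM and HIST1H3C from 4.01 to 1.13 RPKM.

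Most keratins of stratified epithelium rose with DZNep. By limma 12 of 13 tested rose, or 92.3% against 16.6% of all genes, 9 of them stably. By limma 0 fell, also 0 at an unadjusted p under 0.05, and the median log2 change was 0.85. The basal keratin pair rose together: KRT5 was at 2079, 2074 and 2030.3 RPKM in DMSO and 2749, 2748 and 2758 RPKM in DZNep. KRT5 differed by 0.42 (log2), SE 0.0527, adjusted p = 0.0015. KRT14 was at 785, 819.9 and 753 RPKM in DMSO and 1385, 1407 and 1463 RPKM in DZNep. KRT14 differed by 0.85 (log2), SE 0.0573, adjusted p = 7.18e-05. Both are among the most abundant transcripts of these organoids. Neither pair of groups overlapped, but both were picked among called genes. KRT4 and KRT13, the pair of mucosal, non-cornifying epithelia such as oesophagus, also rose. KRT13 was at 60.1, 64.4 and 58.2 RPKM in DMSO and 186, 175 and 166 RPKM in DZNep. KRT13 differed by 1.51 (log2), SE 0.0614, adjusted p = 5.45e-06. KRT4 went from 1097 ± 61.4 to 1532 ± 20.2 RPKM. The pair of cornifying epidermis was lower in level and rose as well, KRT10 at 13.9, 11.4 and 12.8 RPKM in DMSO and 45.4, 39.6 and 36.2 RPKM in DZNep. KRT10 differed by 1.59 (log2), SE 0.0956, adjusted p = 3.98e-05. KRT1 was at 2.49, 2.58 and 2.57 RPKM in DMSO and 10.06, 7.51 and 7.87 RPKM in DZNep. KRT1 differed by 1.41 (log2), SE 0.0958, adjusted p = 7.52e-05. KRT16 and KRT17, keratins of wounded or fast growing epithelium, went from 47.6 ± 2.61 to 88.6 ± 4.86 RPKM and from 10.2 ± 1.35 to 21.9 ± 1.48 RPKM, and KRT79 from 1.89 ± 0.356 to 4.91 ± 0.342 RPKM.

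The remaining stratified keratins changed little. KRT15 went from 2179 ± 115 to 2575 ± 93.1 RPKM, KRT6B from 141 ± 8.04 to 163 ± 4.06 RPKM and KRT78 from 4.35 ± 0.459 to 5.65 ± 0.269 RPKM. These 3 calls depended on single libraries, as KRT15 was not called in 5 fits (adjusted p = 0.112 without DMSO 2, adjusted p = 0.0912 without DMSO 3, adjusted p = 0.0501 without DZNep 1, adjusted p = 0.104 without DZNep 2, adjusted p = 0.108 without DZNep 3), KRT6B in 3 (adjusted p = 0.0756 without DMSO 3, adjusted p = 0.107 without DZNep 2, adjusted p = 0.0591 without DZNep 3) and KRT78 in 2 (adjusted p = 0.0505 without DMSO 2, adjusted p = 0.0667 without DZNep 2). KRT6A, at 572 ± 23.2 RPKM in DMSO and 640 ± 28.5 RPKM in DZNep, was not called (adjusted p = 0.0744). Of 7 simple keratins, KRT8 went from 156 ± 5.49 to 213 ± 14.2 RPKM. KRT8 differed by 0.44 (log2), SE 0.0623, adjusted p = 0.00231. KRT23 rose from 1.56 ± 0.327 to 3.85 ± 0.223 RPKM. KRT23 differed by 0.93 (log2), SE 0.0968, adjusted p = 0.000656. Other simple keratins were not called: KRT18 was at 257 ± 10.6 RPKM in DMSO and 257 ± 11.4 RPKM in DZNep (adjusted p = 1), KRT19 at 2778 ± 79.9 RPKM in DMSO and 2742 ± 77.9 RPKM in DZNep (adjusted p = 0.827) and KRT7 at 1345 ± 55.5 RPKM in DMSO and 1376 ± 47.8 RPKM in DZNep (adjusted p = 0.702). KRT80 was at 16 ± 1.01 RPKM in DMSO and 12.9 ± 1.86 RPKM in DZNep (adjusted p = 0.0524), and KRT20, which went from 4.33 ± 0.0955 to 5.47 ± 0.667 RPKM, was lost in 5 fits (adjusted p = 0.057 without DMSO 1, adjusted p = 0.103 without DMSO 2, adjusted p = 0.0978 without DMSO 3, adjusted p = 0.0958 without DZNep 1, adjusted p = 0.12 without DZNep 2). Keratin genes resemble each other closely, and the sources used here do not state how reads shared between them were assigned. In organoids sequenced in bulk, a change in the number of cells of a type and a change in RNA per cell cannot be told apart. TRP63, the transcription factor of basal cells, was at 48.2 ± 4.11 RPKM in DMSO and 46.6 ± 1.72 RPKM in DZNep (adjusted p = 0.655) and the basal surface marker NGFR rose from 7.24 ± 0.551 to 8.43 ± 0.13 RPKM, a call that was lost in 5 fits (adjusted p = 0.146 without DMSO 2, adjusted p = 0.0551 without DMSO 3, adjusted p = 0.0842 without DZNep 1, adjusted p = 0.106 without DZNep 2, adjusted p = 0.101 without DZNep 3). Of the 12 basal markers 7 rose and 3 fell, or 58.3% and 25% against 16.6% and 11.1% of all genes. Those that fell were the integrins ITGA6 and ITGB4 and P-cadherin, CDH3. The count of falls was 1 without DMSO 2, DMSO 3 or DZNep 2. CDH3 went from 29.9 ± 1.33 to 25.1 ± 1.34 RPKM (adjusted p = 0.0776 without DMSO 2, adjusted p = 0.0562 without DMSO 3, adjusted p = 0.0604 without DZNep 2).

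**Figure D3:**
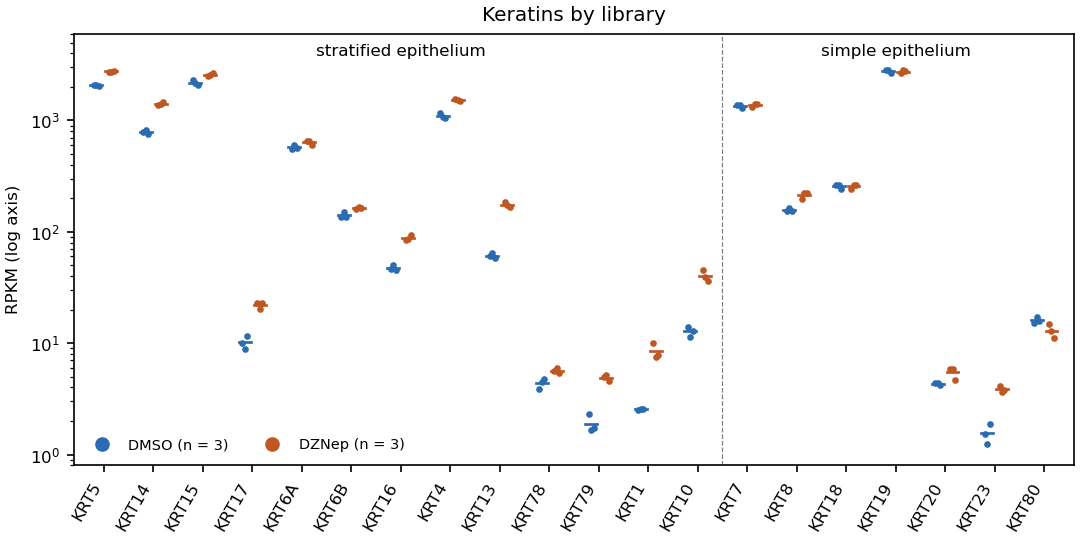
RPKM of 13 keratins of stratified epithelium and 7 of simple epithelium in each library, on a log axis; points are libraries (DMSO blue, DZNep red) and bars are means of 3. KRT13 (means of 60.9 and 175 RPKM) and KRT10 (12.7 and 40.4 RPKM) are clearly apart, while KRT18 and KRT19 overlap between the groups.

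Genes of the cornified envelope, the crosslinked protein shell of dying keratinocytes, rose in part. Among 28 tested members 11 rose and 3 fell, or 39.3% and 10.7% against 16.6% and 11.1% of all genes. Of these, 9 rises and 2 falls were stable, and the median was 0.15. The 130 bases before the start are given for 4 members that rose, for the keratin gene KRT13 and for 1 member that fell. They are given because the motif TGANTCA (N is any base), marked in capitals, lies in each of them. AP-1 dimers of JUN and FOS proteins bind its forms TGAGTCA and TGACTCA, a known element of epidermal genes. The matches of SBSN (TGAATCA) and RPTN (TGATTCA) are of the other forms. The sequences are from RefSeq on GRCm38.p6, while the expression values rest on mm9, and they were chosen after the matches were seen. RefSeq gives 2 starts for KRT13, and the stretch shown belongs to the downstream one. The 130 bases before the upstream start hold no match, and the match there lies 196 bases before it.
SBSN, chr7:30751341-30751470, plus strand: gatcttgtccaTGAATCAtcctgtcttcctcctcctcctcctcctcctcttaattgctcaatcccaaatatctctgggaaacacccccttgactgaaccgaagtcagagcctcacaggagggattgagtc
KRTDAP, chr7:30787775-30787904, plus strand: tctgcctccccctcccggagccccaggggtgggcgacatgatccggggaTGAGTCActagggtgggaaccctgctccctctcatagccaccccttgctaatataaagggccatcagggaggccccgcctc
SCEL, chr14:103513211-103513340, plus strand: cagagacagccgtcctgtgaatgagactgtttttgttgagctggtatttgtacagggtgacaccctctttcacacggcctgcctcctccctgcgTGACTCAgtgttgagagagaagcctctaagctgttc
RPTN, chr3:93393569-93393698, plus strand: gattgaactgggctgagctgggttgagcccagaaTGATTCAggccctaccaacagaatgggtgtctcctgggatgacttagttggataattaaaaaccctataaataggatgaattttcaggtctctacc
KRT13, chr11:100120578-100120707, minus strand: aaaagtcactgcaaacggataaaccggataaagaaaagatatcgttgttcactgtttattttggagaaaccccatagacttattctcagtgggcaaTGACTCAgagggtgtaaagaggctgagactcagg
LOR, chr3:92083143-92083272, minus strand: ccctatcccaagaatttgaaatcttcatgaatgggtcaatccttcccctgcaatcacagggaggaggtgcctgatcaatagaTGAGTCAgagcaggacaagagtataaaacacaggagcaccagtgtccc

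The motif was searched on both strands in the 250 bases before each start, and each motif was counted by itself whatever overlapped it. It occurred in 14 of 26 windows of the cornified list (53.8%), against 6.75% of 32851 windows of all genes and 4.55% of 10668 windows of tested genes. By call, the share was 9 of 12 windows for genes that rose, 1 of 2 for genes that fell and 4 of 12 for genes not called. The 12 windows of genes that rose come from 9 genes, and the 12 of genes not called from 11. DMKN has several starts with a match, and windows of neighbouring starts hold the same site. These windows are therefore not independent, and the shares are not shares of genes. A match describes letters only, and the shares count every form of TGANTCA, not those of AP-1 alone. Members of SPRR2 and of other clusters have near-identical neighbours, so their counts are uncertain.

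SBSN (suprabasin) was at 38, 35.2 and 35.7 RPKM in DMSO and 50.03, 53 and 49.9 RPKM in DZNep. SBSN differed by 0.48 (log2), SE 0.051, adjusted p = 0.000721. KRTDAP, a small secreted protein of differentiating keratinocytes, was at 13.6, 7.15 and 9.37 RPKM in DMSO and 26.6, 22.2 and 20.3 RPKM in DZNep. KRTDAP differed by 1.15 (log2), SE 0.196, adjusted p = 0.0052. The crosslinking enzyme TGM1 rose from 9.21 ± 0.565 to 13.9 ± 1.73 RPKM, the transcription factor ZFP750, a regulator of epidermal differentiation, from 14.7 ± 0.595 to 21.2 ± 2.41 RPKM, DMKN (dermokine) from 53.2 ± 2.09 to 66.8 ± 3.43 RPKM and RPTN (repetin) from 1.98 ± 0.154 to 3.22 ± 0.376 RPKM. Of the small proline-rich proteins, crosslinked into the envelope, SPRR2A2 rose from 166 ± 1.99 to 277 ± 5.1 RPKM. SPRR2A2 differed by 0.73 (log2), SE 0.0453, adjusted p = 4.5e-05. SPRR2D rose from 0.468 ± 0.17 to 2.04 ± 0.92 RPKM, and SPRR2H from 1.3 ± 0.258 to 2.47 ± 0.745 RPKM, a call lost in 4 fits (adjusted p = 0.068 without DMSO 1, adjusted p = 0.106 without DMSO 2, adjusted p = 0.0748 without DZNep 1, adjusted p = 0.0878 without DZNep 2). SPRR1A and SPRR1B were not called (adjusted p = 0.142 and adjusted p = 0.2). SCEL (sciellin) rose from 0.802 ± 0.125 to 1.48 ± 0.0861 RPKM. LOR, loricrin, the main envelope protein of epidermis, went the other way and was at 2.88, 2.33 and 2.68 RPKM in DMSO and 1.92, 1.95 and 1.78 RPKM in DZNep. LOR differed by -0.33 (log2), SE 0.0744, adjusted p = 0.0156. CSTA1, a cystatin of the envelope, also fell, from 1.61 ± 0.308 to 0.889 ± 0.0302 RPKM. In LOR and CSTA1 all DZNep libraries were lower than all DMSO libraries, but both were picked among called genes. SPRR2D and SCEL had DMSO means under 1 RPKM and passed the filter only through the DZNep libraries. CSTA1 had a DZNep mean under 1 RPKM and passed only through the DMSO libraries.

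Adhesion genes moved in both directions. Laminins, integrins and collagens of the basement membrane and hemidesmosomes, which anchor basal cells, fell in 10 of 21 genes and rose in 2, with a median of -0.29, against 11.1% falls over all genes; 6 fell without DMSO 2. LAMB1 was at 3.46, 4.24 and 4.25 RPKM in DMSO and 1.82, 1.91 and 1.66 RPKM in DZNep. LAMB1 differed by -0.83 (log2), SE 0.081, adjusted p = 0.000502. The integrin subunit ITGA3, a laminin receptor, was at 112, 127 and 122 RPKM in DMSO and 81.5, 81.5 and 75.7 RPKM in DZNep. ITGA3 differed by -0.59 (log2), SE 0.0621, adjusted p = 0.000682. The falls of LAMB2 (-0.40), LAMB3 (-0.32), COL4A5 (-0.50) and ITGA6 (-0.29), given as log2 changes, were stable too. The 2 that rose were COL4A1, from 7.51 ± 0.455 to 10.8 ± 0.116 RPKM, and DST, the plakin that links hemidesmosomes to keratin, from 49.7 ± 3.84 to 74.4 ± 2.53 RPKM. COL17A1 was not called (adjusted p = 0.58). ITGB4, the partner of ITGA6, went from 102 ± 10.3 to 79.3 ± 8.16 RPKM, a fall not called in 4 fits (adjusted p = 0.111 without DMSO 2, adjusted p = 0.0872 without DMSO 3, adjusted p = 0.0693 without DZNep 2, adjusted p = 0.0797 without DZNep 3).

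Of 11 desmosome genes 4 fell and 2 rose, or 36.4% and 18.2% against 11.1% and 16.6% of all genes. The count of falls was 1 without DZNep 2 and 2 without DMSO 2 or DMSO 3, and 1 gene rose when any single library other than DZNep 2 was left out. DSC3, a basal desmosomal cadherin, rose from 10.9 ± 0.393 to 15.1 ± 1.04 RPKM and the plakophilin PKP3 fell from 65.9 ± 1.72 to 53.6 ± 1.21 RPKM, both stably. The other falls were in plakoglobin (JUP, -0.30 on the log2 scale), PKP1 (-0.32) and PKP2 (-0.27), and each was lost with at least 1 library left out. DSP and PERP, the most abundant, were not called (adjusted p = 0.855 and adjusted p = 0.324). In the 18 tight junction genes 3 rose and 3 fell, 16.7% each way against 16.6% and 11.1% of all genes, with a median of -0.01. Only 1 fall was left without DMSO 2. CLDN7 fell from 198 ± 7.71 to 150.3 ± 6.45 RPKM, while CLDN12 rose from 6.69 ± 0.315 to 9.05 ± 0.411 RPKM and CGNL1 (cingulin-like) from 8.19 ± 0.474 to 11.6 ± 0.451 RPKM. E-cadherin, CDH1, was at 210.3 ± 13.8 RPKM in DMSO and 200.1 ± 9.08 RPKM in DZNep and was not called (adjusted p = 0.442).

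Secreted proteins of mucosal surfaces rose in 10 of 15 tested genes, or 66.7% against 16.6% of all genes. The median was 0.64, and 9 rises were stable. By limma 0 fell, with 1 lower at an unadjusted p under 0.05; under quantile normalization 11 rose and 2 fell. CLU (clusterin, a secreted chaperone) was at 384, 378 and 383 RPKM in DMSO and 710.3, 763 and 706 RPKM in DZNep. CLU differed by 0.93 (log2), SE 0.0528, adjusted p = 3e-05. PIGR, the receptor that carries IgA across epithelia, was at 4.85, 3.95 and 4.56 RPKM in DMSO and 13.1, 10.4 and 11.3 RPKM in DZNep. PIGR differed by 1.21 (log2), SE 0.0922, adjusted p = 0.000158. TFF1, a trefoil peptide, was at 192, 158 and 146 RPKM in DMSO and 316, 333 and 242 RPKM in DZNep. TFF1 differed by 0.84 (log2), SE 0.139, adjusted p = 0.00486. In all 3, which were picked among called genes, the DZNep libraries lay above the DMSO libraries. The protease inhibitors WFDC15B, WFDC3 and SLPI rose from 1.48 ± 0.359 to 3.86 ± 0.517 RPKM, 4.15 ± 0.719 to 6.98 ± 0.892 RPKM and 2.66 ± 0.528 to 4.43 ± 0.658 RPKM. Other abundant members were not called, among them WFDC2 at 1680.2 ± 133 RPKM in DMSO and 1718 ± 68.5 RPKM in DZNep (adjusted p = 0.749) and lactoferrin, LTF, at 97.5 ± 5.12 RPKM in DMSO and 97.8 ± 6.04 RPKM in DZNep (adjusted p = 0.975).

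UPK3A, a uroplakin of the urothelial surface, was at 9.8, 9.17 and 8.98 RPKM in DMSO and 25, 24.4 and 27.6 RPKM in DZNep. UPK3A differed by 1.37 (log2), SE 0.0599, adjusted p = 7.53e-06. Every DZNep library was above every DMSO library in this gene, which was picked among called genes. Of the other uroplakins UPK1A, UPK1B and UPK3BL changed less and UPK2 was not called (adjusted p = 0.232). UPK1A went from 6.38 ± 0.634 to 9.01 ± 1.35 RPKM (adjusted p = 0.082 without DMSO 2, adjusted p = 0.0598 without DMSO 3, adjusted p = 0.0622 without DZNep 1, adjusted p = 0.0784 without DZNep 2), UPK1B from 53.8 ± 0.248 to 60.7 ± 2.31 RPKM (adjusted p = 0.105 without DMSO 2, adjusted p = 0.0714 without DMSO 3, adjusted p = 0.057 without DZNep 1, adjusted p = 0.0671 without DZNep 2, adjusted p = 0.059 without DZNep 3) and UPK3BL from 82 ± 2.43 to 68.9 ± 2.52 RPKM (adjusted p = 0.0555 without DMSO 2). Uroplakins are also markers of urothelium; the 13 seminal vesicle and urothelial markers summed to 75.6 to 78.5 RPKM in DMSO and 102 to 107 RPKM in DZNep, with 6 seminal vesicle genes (SVS1, SVS3A, SVS4, SVS5, SVS6 and PATE4) listed at 0 in every library. Their part in these results was not tested. In the LY6 family of small surface proteins 8 of 15 rose and 2 fell, or 53.3% and 13.3% against 16.6% and 11.1%. There were 5 rises without DZNep 2 and 1 fall without DMSO 2. LY6D was at 2809, 2841 and 2845 RPKM in DMSO and 3853, 3929.6 and 3785 RPKM in DZNep. LY6D differed by 0.45 (log2), SE 0.055, adjusted p = 0.00135. LY6A (SCA-1) rose from 1159 ± 42.3 to 1614 ± 43.6 RPKM. PSCA, prostate stem cell antigen, rose from 628 ± 2.75 to 896 ± 51.9 RPKM. LY6G6D fell from 4.49 ± 0.484 to 2.47 ± 0.751 RPKM.

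Clade B serpins, which inhibit proteases inside cells, rose in 3 of 8 tested genes and fell in 2, or 37.5% and 25% against 16.6% and 11.1% of all genes. There were 0 falls without DMSO 2 and 1 fall without DZNep 2. SERPINB9, an inhibitor of granzyme B, was at 6.62, 6.38 and 7.43 RPKM in DMSO and 13.3, 13.6 and 13.5 RPKM in DZNep. SERPINB9 differed by 0.89 (log2), SE 0.0587, adjusted p = 6.36e-05. SERPINB6B rose from 6.44 ± 0.594 to 14.7 ± 0.886 RPKM and SERPINB2, the plasminogen activator inhibitor PAI-2, from 0.557 ± 0.0837 to 1.75 ± 0.187 RPKM. SERPINB2, counted among the 3 rises, had a DMSO mean under 1 RPKM and passed the filter only through the DZNep libraries. SERPINB8 fell from 8.02 ± 0.572 to 6.31 ± 0.351 RPKM (adjusted p = 0.0538 without DMSO 2, adjusted p = 0.0515 without DZNep 2) and SERPINB11 from 10.2 ± 0.803 to 7.87 ± 0.716 RPKM (adjusted p = 0.0534 without DMSO 2). SERPINB5 (maspin) was at 73.6 ± 1.45 RPKM in DMSO and 75.8 ± 2.12 RPKM in DZNep and not called (adjusted p = 0.528). Most S100 genes were not called, including the abundant S100A6 (adjusted p = 0.957) and S100A11 (adjusted p = 0.962). Among lineage transcription factors, SNAI2, which is high in basal cells, rose from 16.5 ± 0.353 to 20.6 ± 0.603 RPKM, and TFAP2A and MSX1 fell from 13 ± 0.402 to 10.4 ± 0.649 RPKM and 1.55 ± 0.159 to 0.977 ± 0.0595 RPKM. MSX1 had a DZNep mean under 1 RPKM and passed the filter only through the DMSO libraries.

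Androgen target genes did not move as a group: 4 of 21 rose and 3 fell, or 19% and 14.3% against 16.6% and 11.1% of all genes. The count of rises was 2 without DMSO 2, DMSO 3, DZNep 1, DZNep 2 or DZNep 3, and the count of falls was 0 without DMSO 2 and 1 without DMSO 1, DZNep 2 or DZNep 3. TMPRSS2 was at 175 ± 5.87 RPKM in DMSO and 179 ± 4.3 RPKM in DZNep (adjusted p = 0.64). FOXA1, a pioneer factor that opens chromatin, was at 109.5 ± 1.88 RPKM in DMSO and 101 ± 2.29 RPKM in DZNep (adjusted p = 0.102).

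Chemokines that attract neutrophils, and colony stimulating factors, rose in 8 of 12 tested genes, or 66.7% against 16.6% of all genes. All 8 rises were stable, and the median was 0.59. By limma 0 fell, with 2 lower at an unadjusted p under 0.05 and 1 called without DZNep 3. The 130 bases before the start of 4 of them hold a match to the NF-kB consensus, the site of the transcription factor that drives inflammatory genes, given in capitals; these windows and those of the lysosomal genes were also chosen after the matches were seen.
CXCL1, chr5:90891115-90891244, plus strand: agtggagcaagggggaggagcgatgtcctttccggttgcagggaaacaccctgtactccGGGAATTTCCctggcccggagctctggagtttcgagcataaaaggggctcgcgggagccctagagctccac
CXCL2, chr5:90903769-90903898, plus strand: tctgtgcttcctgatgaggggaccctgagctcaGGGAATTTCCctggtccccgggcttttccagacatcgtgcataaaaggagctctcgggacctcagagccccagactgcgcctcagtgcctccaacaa
CXCL3, chr5:90785971-90786100, plus strand: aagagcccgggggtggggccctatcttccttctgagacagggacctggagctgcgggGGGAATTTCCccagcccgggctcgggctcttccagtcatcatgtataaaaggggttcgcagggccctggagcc
CCL20, chr1:83116636-83116765, plus strand: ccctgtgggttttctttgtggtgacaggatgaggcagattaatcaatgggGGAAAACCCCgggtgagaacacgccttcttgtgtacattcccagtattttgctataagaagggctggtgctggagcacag

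Of 10 windows of the list, 5 held this consensus on either strand within 250 bases of the start, against 5% of all windows and 5.95% of windows of tested genes. The 5 are among the 6 windows of genes that rose, and the 4 windows of genes not called held 0. The 4 matches shown lie 71 to 97 bases before the start. The first 3 genes lie in a cluster of related sequence on chromosome 5, so their windows are not independent.

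CXCL3, a CXCR2 ligand, was at 13.9, 13.2 and 13.5 RPKM in DMSO and 34.7, 34.4 and 34 RPKM in DZNep. CXCL3 differed by 1.28 (log2), SE 0.0434, adjusted p = 2.21e-06. CXCL5 was at 115, 116 and 99.95 RPKM in DMSO and 237, 226 and 229 RPKM in DZNep. CXCL5 differed by 1.06 (log2), SE 0.0663, adjusted p = 4.87e-05. CXCL1 was at 35.2, 32.4 and 29.7 RPKM in DMSO and 59.99, 64.9 and 68.8 RPKM in DZNep. CXCL1 differed by 0.97 (log2), SE 0.0754, adjusted p = 0.000166. CXCL2 was at 4.82, 4.92 and 3.89 RPKM in DMSO and 7.13, 8.32 and 7.48 RPKM in DZNep. CXCL2 differed by 0.64 (log2), SE 0.0872, adjusted p = 0.00198. CCL20, which attracts CCR6-bearing cells, spread more in DMSO, at 9.68, 5.95 and 4.75 RPKM in DMSO and 21.4, 25.7 and 27.2 RPKM in DZNep. CCL20 differed by 1.77 (log2), SE 0.205, adjusted p = 0.00101. None of these 5 overlapped between the groups, but they were picked among called genes, so this is no further result. CSF1 and CSF2, growth factors of macrophages and granulocytes, rose from 5.78 ± 0.198 to 7.84 ± 0.0724 RPKM and from 1.86 ± 0.311 to 3.14 ± 0.414 RPKM, and CXCL17, a mucosal chemokine, from 5.2 ± 1.21 to 9.43 ± 1.66 RPKM. IL33 (adjusted p = 0.0925), CSF3 (adjusted p = 0.289) and LIF (adjusted p = 0.579) were not called.

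Gasdermin C genes rose together. GSDMC2 was at 17.6, 21.3 and 22.8 RPKM in DMSO and 64.4, 73.9 and 60.4 RPKM in DZNep. GSDMC2 differed by 1.65 (log2), SE 0.105, adjusted p = 5.26e-05. GSDMC3 was at 4.85, 5.46 and 5.98 RPKM in DMSO and 16.7, 18.6 and 15.3 RPKM in DZNep. GSDMC3 differed by 1.47 (log2), SE 0.0864, adjusted p = 3.44e-05. GSDMC4 was at 2.53, 2.83 and 3.07 RPKM in DMSO and 7.84, 7.5 and 7.36 RPKM in DZNep. GSDMC4 differed by 1.17 (log2), SE 0.065, adjusted p = 2.82e-05. Gasdermins form membrane pores after cleavage, and these are close copies whose reads may be shared. In the list of IL-1 cytokines, their receptors, gasdermins and inflammasome genes 8 of 15 rose, or 53.3% against 16.6% of all genes. Of these rises 7 were stable. By limma 0 genes of the list fell, with 1 lower at an unadjusted p under 0.05 and 1 called without DZNep 1. IL18 was at 6.54, 6.95 and 5.31 RPKM in DMSO and 12.7, 13.8 and 12.6 RPKM in DZNep. IL18 differed by 0.96 (log2), SE 0.0879, adjusted p = 0.000379. Its secreted inhibitor IL18BP rose from 0.897 ± 0.105 to 1.88 ± 0.056 RPKM and IL1A from 8.46 ± 1 to 12.1 ± 1.17 RPKM. IL18BP had a DMSO mean under 1 RPKM and passed the filter only through the DZNep libraries. GSDMD, the gasdermin cut by inflammatory caspases, was at 8.52 ± 1.01 RPKM in DMSO and 9.06 ± 0.126 RPKM in DZNep (adjusted p = 0.438), and the adaptor PYCARD was at 10.4 ± 0.373 RPKM in DMSO and 10.7 ± 0.0677 RPKM in DZNep (adjusted p = 0.468).

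Summed markers of leukocytes were higher with DZNep, but only 3 of the 19 passed the filter. Their sums, given with the other cell type markers, did not overlap between the groups, and 8 of the 19 were listed at 0 in every library, among them the T cell gene CD3D, the B cell gene MS4A1 and the macrophage gene EMR1. The sum came mostly from CD14, which rose from 31.6 ± 2 to 43 ± 0.841 RPKM, and CD68, at 14.9 ± 1.73 RPKM in DMSO and 17.3 ± 1.07 RPKM in DZNep (adjusted p = 0.098), with S100A8 at 4.8, 1.7 and 1.39 RPKM in DMSO and 5.58, 6.56 and 6.01 RPKM in DZNep. S100A8 was called only in part of the fits (adjusted p = 0.105 without DMSO 2, adjusted p = 0.0857 without DMSO 3, adjusted p = 0.059 without DZNep 1, adjusted p = 0.0926 without DZNep 2, adjusted p = 0.086 without DZNep 3). The part of leukocytes in the chemokine and IL-1 results was not tested. Of the enzymes that make prostaglandins and leukotrienes, ALOX12E, an epidermal lipoxygenase, rose from 36.8 ± 2.99 to 56.9 ± 4.43 RPKM, and PTGS2 was not called (adjusted p = 0.191).

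**Figure D4:**
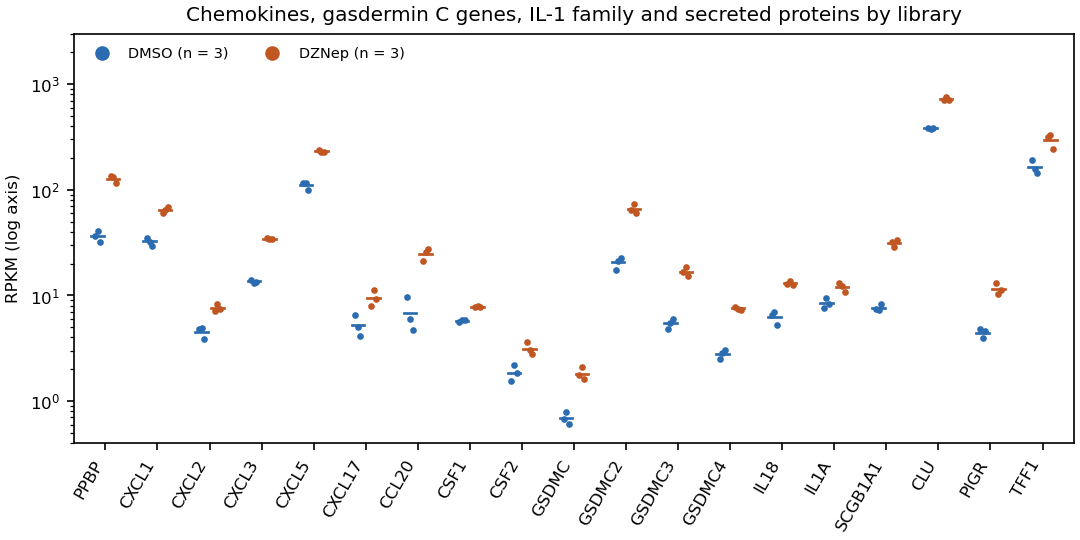
RPKM in each library, on a log axis, for chemokines and colony stimulating factors, gasdermin C genes, IL18, IL1A and secreted proteins; points are libraries (DMSO blue, DZNep red) and bars are means of 3. The DZNep libraries lie above the DMSO libraries in each gene drawn, from PPBP (means of 36.4 and 127 RPKM) to TFF1 (165 and 297 RPKM).

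In the BMP and TGF-beta pathway 14 of 39 fell and 2 rose, or 35.9% and 5.13% against 11.1% and 16.6% of all genes. The median was -0.12, and 9 fell without DMSO 2 or without DMSO 3. Rises numbered 1 when any single library other than DZNep 3 was left out. The ID genes, direct BMP targets that block basic helix-loop-helix factors, fell: ID3 was at 69.98, 77.1 and 79.6 RPKM in DMSO and 47.4, 49.6 and 46.6 RPKM in DZNep. ID3 differed by -0.65 (log2), SE 0.0598, adjusted p = 0.000394. ID1 went from 316 ± 29.1 to 218 ± 4.78 RPKM and ID2 from 257 ± 26.1 to 185 ± 3.36 RPKM. The inhibitory SMAD6 and SMAD7, also targets of the pathway, fell from 6.87 ± 0.443 to 4.62 ± 0.389 RPKM and 9.59 ± 0.876 to 7.12 ± 0.54 RPKM, and the signal transducer SMAD3 from 20.1 ± 1.18 to 15.6 ± 0.911 RPKM. LTBP4, which stores latent TGF-beta in matrix, was at 16.1, 18.5 and 18.4 RPKM in DMSO and 11.4, 11.3 and 9.89 RPKM in DZNep. LTBP4 differed by -0.66 (log2), SE 0.0735, adjusted p = 0.000866. CTGF (CCN2), a matricellular protein induced by TGF-beta and by YAP, was the stable exception and rose, at 150.4, 175 and 176 RPKM in DMSO and 258, 257 and 269.5 RPKM in DZNep. CTGF differed by 0.65 (log2), SE 0.0699, adjusted p = 0.000764. Another YAP target, ANKRD1, rose from 1.86 ± 0.0498 to 4.01 ± 0.615 RPKM. On the list of YAP targets 4 of 28 genes fell and 3 rose, or 14.3% and 10.7% against 11.1% and 16.6% of all genes. The count of falls was 1 without DMSO 2, DMSO 3, DZNep 2 or DZNep 3 and 9 without DMSO 1.

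Immediate early genes, switched on within minutes by growth factors or stress, fell in 10 of 26, or 38.5% against 11.1% of all genes. The median was -0.15, and 8 falls were stable. By limma 0 rose, with 0 higher at an unadjusted p under 0.05. FOS was at 269, 260.5 and 255 RPKM in DMSO and 181, 189 and 157 RPKM in DZNep. FOS differed by -0.58 (log2), SE 0.0732, adjusted p = 0.00152. ATF3 was at 14.5, 12.8 and 11.2 RPKM in DMSO and 7.48, 7.31 and 6.07 RPKM in DZNep. ATF3 differed by -0.80 (log2), SE 0.102, adjusted p = 0.00155. NR4A1 was at 10.6, 9.4 and 9.1 RPKM in DMSO and 7.13, 6.39 and 5.86 RPKM in DZNep. NR4A1 differed by -0.52 (log2), SE 0.0794, adjusted p = 0.00333. The phosphatase DUSP1, which turns off MAP kinases, fell from 42.2 ± 1.5 to 31.7 ± 1.64 RPKM, EGR1 from 86 ± 1.58 to 68.4 ± 6.19 RPKM, MAFF from 22.7 ± 0.917 to 17.7 ± 0.733 RPKM and the mRNA decay factor ZFP36 from 114 ± 4.79 to 87.4 ± 6.57 RPKM. The DZNep libraries were below the DMSO libraries in all of these, but they were picked among called genes. The EGFR ligands split: TGFA fell from 13.2 ± 0.703 to 9.47 ± 0.808 RPKM and HBEGF from 19.5 ± 1.3 to 15 ± 1.14 RPKM, and EPGN (epigen) rose from 0.696 ± 0.15 to 1.62 ± 0.442 RPKM. EPGN had a DMSO mean under 1 RPKM and passed the filter only through the DZNep libraries. ETV5, an ERK-induced ETS factor, rose from 4.88 ± 0.142 to 6.51 ± 0.167 RPKM.

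In the Wnt pathway WNT4 was at 26.9, 25.3 and 24.7 RPKM in DMSO and 18.2, 17.9 and 15.9 RPKM in DZNep. WNT4 differed by -0.54 (log2), SE 0.0625, adjusted p = 0.00099. The secreted antagonist WIF1 fell from 4.25 ± 0.562 to 2.4 ± 0.186 RPKM. AXIN2, a target of beta-catenin, fell from 16.4 ± 0.537 to 13.4 ± 0.87 RPKM, a call lost in 1 fit (adjusted p = 0.0519 without DMSO 2). In all, 6 of 27 Wnt genes fell and 1 rose, or 22.2% and 3.7% against 11.1% and 16.6% of all genes. There were 2 falls without DMSO 2 and 2 rises without DMSO 1. JAG2, a Notch ligand, fell from 46.4 ± 3.31 to 32.7 ± 0.507 RPKM, and FGFR3 from 39.9 ± 1.36 to 29.5 ± 1.42 RPKM. Guidance molecules (ephrins, semaphorins and plexins) fell in 10 of 27 genes and rose in 2, or 37% and 7.41% against 11.1% and 16.6%. The count of falls was 5 without DMSO 2 and 6 without DMSO 3, and of rises 1 without DMSO 1, DMSO 2 or DMSO 3. PLXND1 was at 2.84, 2.73 and 2.64 RPKM in DMSO and 1.52, 1.37 and 1.08 RPKM in DZNep. PLXND1 differed by -0.69 (log2), SE 0.0832, adjusted p = 0.00121. SEMA3F was at 30.6, 35 and 36.8 RPKM in DMSO and 25.3, 22.6 and 20 RPKM in DZNep. SEMA3F differed by -0.57 (log2), SE 0.0949, adjusted p = 0.00473. The groups were apart in both, but both were picked among called genes. Retinoid genes moved both ways: the retinaldehyde dehydrogenase ALDH1A1 rose from 101 ± 12.6 to 165 ± 11.7 RPKM and the retinoic acid carrier CRABP2 from 1.09 ± 0.361 to 2.87 ± 0.434 RPKM, and the receptor RARB fell from 8.02 ± 0.152 to 6.68 ± 0.213 RPKM.

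Enzymes around the target of DZNep changed at several steps. AHCY, S-adenosylhomocysteine hydrolase itself, was at 60.05, 53.9 and 47.4 RPKM in DMSO and 58.3, 61.2 and 63.8 RPKM in DZNep and was not called. AHCY differed by 0.19 (log2), SE 0.0844, adjusted p = 0.135. The groups overlapped. Downstream of adenosine, the purine nucleoside phosphorylase genes PNP and PNP2 rose from 20.4 ± 0.885 to 28.6 ± 0.814 RPKM and 8.79 ± 0.366 to 12.6 ± 0.66 RPKM, neighbouring copies whose reads may be shared. NT5E (CD73), which releases adenosine outside cells, rose from 1.19 ± 0.207 to 2.29 ± 0.0811 RPKM, and xanthine dehydrogenase, XDH, fell from 10.9 ± 0.327 to 8.42 ± 0.578 RPKM. In adenosine and purine salvage 11 of 28 rose and 3 fell, or 39.3% and 10.7% against 16.6% and 11.1% of all genes. The count of rises was 5 without DMSO 2, DZNep 2 or DZNep 3, 6 without DMSO 3 and 7 without DZNep 1. The falls numbered 1 when any single library other than DZNep 1 was left out. MRI1, of the methionine salvage pathway, rose from 10.3 ± 0.683 to 13.8 ± 0.837 RPKM, and MAT2A, which makes S-adenosylmethionine, was at 87.4 ± 5.14 RPKM in DMSO and 82.1 ± 2.76 RPKM in DZNep (adjusted p = 0.273).

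Of 42 methyltransferases acting on small molecules, RNA and proteins, 11 rose and 4 fell. These are 26.2% and 9.52%, against 16.6% and 11.1% of all genes. The count of rises was 6 without DMSO 2, DMSO 3 or DZNep 2, and the count of falls was 1 without DMSO 2, DMSO 3, DZNep 1 or DZNep 2 and 2 without DMSO 1 or DZNep 3. METTL3, the catalytic subunit for N6-methyladenosine in mRNA, was at 12.3, 12.2 and 12.9 RPKM in DMSO and 18.4, 18.6 and 17.2 RPKM in DZNep. METTL3 differed by 0.51 (log2), SE 0.0497, adjusted p = 0.000514. CMTR1, which methylates the mRNA cap, rose from 17.4 ± 0.2 to 23.3 ± 0.668 RPKM, and the arginine methyltransferases PRMT6 and PRMT7 from 6.82 ± 0.345 to 9.77 ± 0.382 RPKM and 10.4 ± 0.679 to 13.3 ± 0.62 RPKM. PCMT1, a repair methyltransferase of damaged proteins, fell from 19.6 ± 0.186 to 15.5 ± 0.604 RPKM.

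Detoxifying enzymes rose in a larger share than the 16.6% of all genes. In the NRF2 and glutathione list 16 of 49 rose and 2 fell, with a median of 0.16; 25 rose without DMSO 1 and 10 without DMSO 2. The falls numbered 2 without DMSO 3 and 1 without any other library. Glutathione synthetase, GSS, was at 20.7, 18.1 and 16.4 RPKM in DMSO and 35.5, 38.7 and 35.3 RPKM in DZNep. GSS differed by 0.95 (log2), SE 0.0826, adjusted p = 0.000281. GSTO1 rose from 1169.6 ± 118 to 1789 ± 72.4 RPKM, GSTM1 from 34.4 ± 3.85 to 47 ± 1.68 RPKM, and NFE2L2, which encodes NRF2, from 113 ± 4.15 to 137 ± 3.02 RPKM. OSGIN1, an NRF2 target, fell from 17.9 ± 0.802 to 12.9 ± 1.4 RPKM. Among xenobiotic enzymes 10 of 24 rose and 3 fell, 9 and 2 stably. UGT2B34, a glucuronosyltransferase, was at 9.83, 9.04 and 9.33 RPKM in DMSO and 23.9, 24.3 and 25 RPKM in DZNep. UGT2B34 differed by 1.29 (log2), SE 0.0483, adjusted p = 3.88e-06. The sulfotransferases SULT1C2 and SULT1A1 rose from 6.99 ± 0.725 to 13.4 ± 0.836 RPKM and 4.1 ± 0.868 to 7.69 ± 0.512 RPKM, and CYP2F2, a cytochrome P450 of club cells, from 219 ± 52.5 to 371 ± 10.4 RPKM. UGT and GST genes lie in families of close copies, some with shared exons, and their split is uncertain.

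Mitochondrial fatty acid oxidation genes rose in 12 of 32 and fell in 2, or 37.5% and 6.25% against 16.6% and 11.1% of all genes. The median was 0.14, and the count of falls was 1 without DMSO 1, DMSO 2, DZNep 1 or DZNep 2. HADHB, of the trifunctional enzyme, rose from 40.8 ± 2.08 to 51.7 ± 1.39 RPKM, the carnitine carrier SLC25A20 from 7.94 ± 0.0771 to 10.3 ± 0.86 RPKM, ETFDH from 19.6 ± 0.0556 to 23.5 ± 0.762 RPKM and ACAD9 from 8.29 ± 0.491 to 10.9 ± 0.609 RPKM. ECI2, an isomerase for unsaturated chains, was the clear exception, at 8.55, 9.05 and 8.96 RPKM in DMSO and 3.9, 4.02 and 4.28 RPKM in DZNep. ECI2 differed by -0.96 (log2), SE 0.052, adjusted p = 2.54e-05. Glycolysis and hypoxia genes fell in 11 of 37 and rose in 3, or 29.7% and 8.11% against 11.1% and 16.6% of all genes. The median was -0.15. The count of falls was 3 without DMSO 2, 4 without DMSO 3 or DZNep 2, 5 without DZNep 1 and 7 without DZNep 3. The stable falls were LDHA (lactate dehydrogenase), from 820.3 ± 15.3 to 674 ± 23.9 RPKM, ENO2, from 6.71 ± 0.655 to 4.54 ± 0.685 RPKM, and the HIF target ANKRD37, from 19.5 ± 1.16 to 14.6 ± 0.885 RPKM. PFKL and PFKFB4, of the phosphofructokinase step, rose from 59 ± 2.07 to 70.7 ± 0.642 RPKM and 3.28 ± 0.207 to 4.75 ± 0.301 RPKM. ENO2 is also a neuroendocrine marker; CHGA, NEUROD1 and SCG3, defining genes of that type, were listed at 0.

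Genes of lysosomes and autophagy rose in 18 of 52 and fell in 2, or 34.6% and 3.85% against 16.6% and 11.1%. The median was 0.12. The count of rises was 7 without DMSO 2, 8 without DZNep 2 and 9 without DMSO 3. The count of falls was 1 without DMSO 1, DMSO 2, DZNep 1, DZNep 2 or DZNep 3. Cathepsin A, CTSA, was at 57.8, 56.1 and 55.2 RPKM in DMSO and 80.9, 82.7 and 83.2 RPKM in DZNep. CTSA differed by 0.54 (log2), SE 0.0444, adjusted p = 0.000223. Cathepsin D, CTSD, was at 543, 525 and 538 RPKM in DMSO and 698, 707 and 693 RPKM in DZNep. CTSD differed by 0.38 (log2), SE 0.0481, adjusted p = 0.00142. The glycosidases GUSB and HEXA rose from 18.2 ± 0.865 to 25.4 ± 0.598 RPKM and 24 ± 0.793 to 29.5 ± 1.56 RPKM, and acid lipase, LIPA, from 2.79 ± 0.185 to 4.34 ± 0.198 RPKM. GLB1, beta-galactosidase, went the other way, at 12.6, 12.7 and 13.4 RPKM in DMSO and 8.2, 7.66 and 7.53 RPKM in DZNep. GLB1 differed by -0.66 (log2), SE 0.0515, adjusted p = 0.000167. Lysosomal genes are known for an E-box, CACGTG, bound by TFEB, and the starts of 2 genes that rose and of GLB1, which fell, hold it, in capitals. The window of another RefSeq start of CTSA holds no match.
CTSA, chr2:164833643-164833772, plus strand: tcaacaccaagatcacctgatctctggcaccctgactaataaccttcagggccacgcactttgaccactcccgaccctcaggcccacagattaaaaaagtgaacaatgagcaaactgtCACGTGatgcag
CTSD, chr7:142387828-142387957, minus strand: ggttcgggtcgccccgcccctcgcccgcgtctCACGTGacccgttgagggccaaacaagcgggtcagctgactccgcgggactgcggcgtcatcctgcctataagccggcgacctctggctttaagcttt
GLB1, chr9:114400948-114401077, plus strand: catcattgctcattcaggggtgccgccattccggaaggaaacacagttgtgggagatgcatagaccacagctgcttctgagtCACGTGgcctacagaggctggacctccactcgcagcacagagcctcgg

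CACGTG was found in 14 of 47 windows of the lysosome list (29.8%), against 6.02% of all windows and 8.54% of windows of tested genes. The share was 5 of 17 for genes that rose and 8 of 28 for genes not called, so the letters did not separate genes that rose from genes not called. MYC and MAX bind the same letters, and 7 of 83 windows of nucleolar factors held them. In the rest of metabolism ferroportin, SLC40A1, the iron exporter, was at 6.99, 6.97 and 7.64 RPKM in DMSO and 11.5, 11.8 and 12.2 RPKM in DZNep. SLC40A1 differed by 0.65 (log2), SE 0.0526, adjusted p = 0.000209. ARG1, arginase, rose from 1.17 ± 0.307 to 3.33 ± 0.28 RPKM, the polyamine enzyme SAT1 from 419.9 ± 8.62 to 528 ± 14.3 RPKM and ACSS2, which makes acetyl-CoA from acetate, from 6.95 ± 0.658 to 11.5 ± 0.254 RPKM. NUPR1, a stress-induced nuclear protein, was at 459.7, 459.9 and 442 RPKM in DMSO and 929.6, 1002 and 909 RPKM in DZNep. NUPR1 differed by 1.06 (log2), SE 0.0573, adjusted p = 2.54e-05. PSAT1, of serine synthesis, fell from 71.4 ± 9.23 to 51.2 ± 3.29 RPKM. IMPDH2, of guanine nucleotide synthesis, fell from 92.6 ± 9.35 to 63.9 ± 3.5 RPKM.

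Among factors that assemble ribosomes more genes rose than fell, and among ribosomal proteins more fell than rose. Of 86 nucleolar factors that build ribosomes 31 rose, or 36% against 16.6% of all genes. By limma 0 fell (0 at an unadjusted p under 0.05) and 55 were not called, with a median of 0.17. The count of rises was 11 without DMSO 2 or DMSO 3, 13 without DZNep 2 and 14 without DZNep 3, and 11 rises were stable. NOL8 was at 6.37, 5.3 and 5.21 RPKM in DMSO and 8.26, 8.56 and 8.74 RPKM in DZNep. NOL8 differed by 0.53 (log2), SE 0.0724, adjusted p = 0.0021. NOP10, of the pseudouridylation complex, rose from 104 ± 9.81 to 139.7 ± 5.62 RPKM, RRP12 from 5.23 ± 0.696 to 7.32 ± 0.0982 RPKM and RRS1 from 37.5 ± 4.04 to 48.6 ± 1.17 RPKM. FBL and NPM1, abundant nucleolar proteins, were not called (adjusted p = 0.379 and adjusted p = 0.129). Falls were called in 22 of 46 ribosomal proteins of the large subunit and 21 of 31 of the small subunit. These are 47.8% and 67.7%, against 11.1% of all genes. The medians were -0.23 and -0.28, and the small subunit had 1 rise. Under quantile normalization the medians were -0.16 and -0.15. The number of large subunit falls was 7 without DMSO 2, 8 without DZNep 1 or DZNep 2, 11 without DZNep 3 and 14 without DMSO 1, and of small subunit falls 4 without DMSO 2 or DZNep 2, 7 without DZNep 1 and 13 without DZNep 3.

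Mitochondrial ribosomal proteins rose in 14 of 48 genes of the large and 10 of 29 of the small subunit, and complex I genes in 14 of 44. These are 29.2%, 34.5% and 31.8%, against 16.6% of all genes. For the large subunit the count of rises was 3 without DZNep 2, 4 without DMSO 2, 6 without DMSO 3, 7 without DZNep 3, 8 without DZNep 1 and 25 without DMSO 1, for the small subunit 5 without DZNep 2, 6 without DMSO 2, DMSO 3 or DZNep 3 and 19 without DMSO 1, and for complex I 5 without DMSO 2, 6 without DZNep 2, 7 without DMSO 3 or DZNep 3 and 25 without DMSO 1. Of these lists the small subunit had 1 fall, 0 without DMSO 1, DMSO 2, DZNep 1 or DZNep 2 and 2 without DZNep 3, and complex I 1 fall, 0 without DZNep 2. Translation initiation factors fell in 13 of 53 and rose in 4, or 24.5% and 7.55% against 11.1% and 16.6% of all genes. There were 5 falls without DMSO 2, 6 falls without DZNep 2 and 7 rises without DMSO 1. Of 48 splicing factors of the SR and hnRNP families 9 fell and 1 rose, or 18.8% and 2.08% against 11.1% and 16.6%. There were 5 falls without DMSO 2. The count of rises was 0 without DMSO 2, DMSO 3, DZNep 2 or DZNep 3 and 2 without DZNep 1. HNRNPR was at 8.48, 8.04 and 8.08 RPKM in DMSO and 6.21, 6.09 and 6.53 RPKM in DZNep. HNRNPR differed by -0.34 (log2), SE 0.0492, adjusted p = 0.00269. SRSF9 fell from 47.9 ± 3.55 to 38.6 ± 0.94 RPKM.

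**Figure D5:**
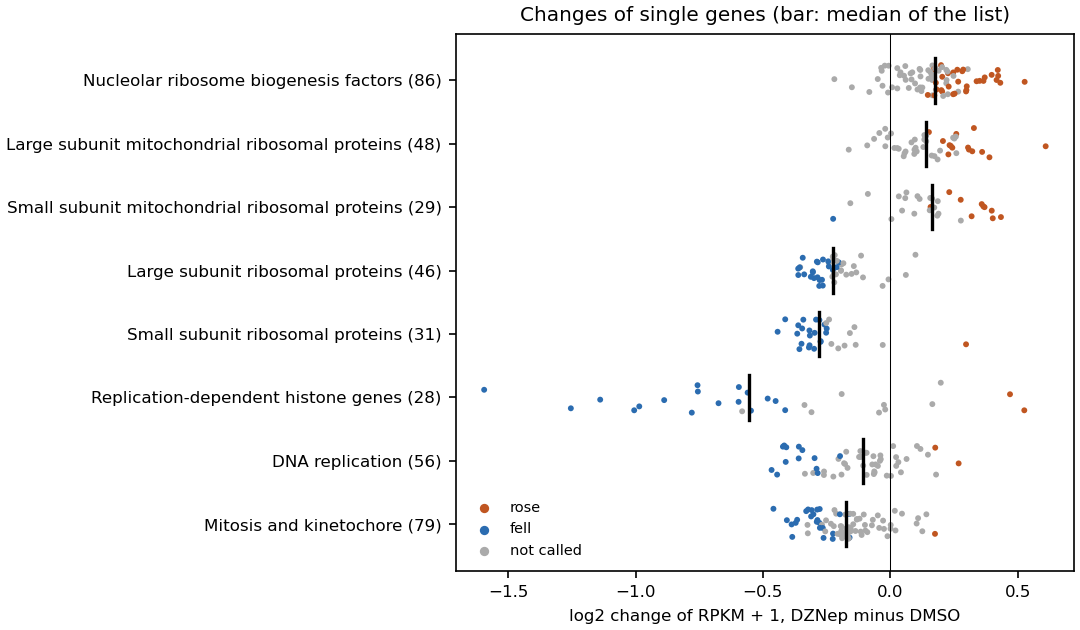
log2 change of RPKM + 1 (DZNep minus DMSO) of each gene in 8 lists; each point is a gene, red where it rose, blue where it fell and grey where it was not called, and black bars are medians. Nucleolar and mitochondrial ribosomal genes lie mostly right of 0, and ribosomal protein, histone, replication and mitosis genes mostly left.

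Replication-dependent histone genes are transcribed in S phase, and their mRNA normally lacks a poly(A) tail. Of 28 tested 17 fell and 2 rose, or 60.7% and 7.14% against 11.1% and 16.6% of all genes. The median was -0.55, and 12 falls were stable. HIST1H3I fell from 1.94 ± 0.469 to 0.581 ± 0.143 RPKM, HIST1H3B from 2.17 ± 0.535 to 0.868 ± 0.198 RPKM, HIST1H4D from 3.74 ± 0.769 to 1.81 ± 0.483 RPKM and HIST1H4H from 2.03 ± 0.144 to 0.923 ± 0.391 RPKM. HIST1H2BC was higher with DZNep, at 10.2, 8.92 and 10.09 RPKM in DMSO and 14.5, 12.9 and 14.1 RPKM in DZNep. HIST1H2BC differed by 0.47 (log2), SE 0.0654, adjusted p = 0.00224. HIST2H2AA1 rose from 2.48 ± 0.246 to 4.01 ± 0.367 RPKM. The libraries were made with a kit for mRNA, most members lie near the limit of 1 RPKM, and 37 others of the 65 in the table lay under it. HIST1H3I, HIST1H3B and HIST1H4H, among others, had DZNep means under 1 RPKM and passed the filter only through the DMSO libraries. Entry of this kind tilts the count and the median toward falls. With no filter limma called 2 rises and 27 falls on this list. All members that fell had a mean under 5 RPKM: with a filter of 5 RPKM limma called 1 rise, HIST1H2BC, and 0 falls. Copies within a histone class are nearly identical, so single genes are uncertain. Of the other histone genes the linker histone H1FX fell from 11.2 ± 0.495 to 7.79 ± 0.269 RPKM and the chaperone ASF1B, which delivers H3 and H4 in S phase, from 22.2 ± 2.67 to 15.5 ± 0.814 RPKM.

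Falls of replication and mitosis genes were small in size. In DNA replication 13 of 56 fell and 2 rose, or 23.2% and 3.57% against 11.1% and 16.6% of all genes. The median was -0.11, and 6 falls were stable. The count of falls was 6 without DMSO 2 and 8 without DZNep 2. The count of rises was 0 without DMSO 2, DMSO 3, DZNep 2 or DZNep 3 and 1 without DZNep 1. E2F1 was at 8.81, 8.91 and 8.08 RPKM in DMSO and 6.19, 6.62 and 5.71 RPKM in DZNep. E2F1 differed by -0.42 (log2), SE 0.0635, adjusted p = 0.00321. LIG1, which joins Okazaki fragments, fell from 36.9 ± 2.25 to 28.8 ± 0.633 RPKM, and the ribonucleotide reductase subunit RRM2 from 126 ± 6.93 to 93.9 ± 4.45 RPKM. In mitosis 24 of 79 fell and 1 rose, or 30.4% and 1.27% against the same shares of all genes. The median was -0.17, and 8 falls were stable. The count of falls was 8 without DMSO 2, 10 without DZNep 2, 12 without DZNep 1 and 15 without DMSO 1. The 1 rise was MKI67, the common marker of dividing cells, which went from 52.7 ± 0.96 to 59.6 ± 2.62 RPKM, and it was not called in 4 fits (adjusted p = 0.0981 without DMSO 2, adjusted p = 0.087 without DMSO 3, adjusted p = 0.0895 without DZNep 2, adjusted p = 0.0671 without DZNep 3). FOXM1, the transcription factor of mitotic genes, was at 15.1, 15.8 and 14.6 RPKM in DMSO and 11.3, 10.8 and 10.12 RPKM in DZNep. FOXM1 differed by -0.46 (log2), SE 0.0558, adjusted p = 0.00126. TOP2A fell from 74.7 ± 4.53 to 56.2 ± 5.07 RPKM, cyclin A2 (CCNA2) from 61.3 ± 5.42 to 47.3 ± 3.07 RPKM, and separase (ESPL1) from 5.89 ± 0.0295 to 4.69 ± 0.197 RPKM. In FOXM1 and E2F1, which were picked among called genes, the groups did not overlap.

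Of 60 repair genes 7 rose and 10 fell, or 11.7% and 16.7% against 16.6% and 11.1% of all genes. The median was -0.02, so the list did not move as a group. The count of rises was 3 without DMSO 2 and 4 without DMSO 3, and the count of falls was 4 without DMSO 2, DZNep 1 or DZNep 2. FANCA, of the crosslink repair core, was at 6.85, 6.55 and 6.31 RPKM in DMSO and 4.43, 4.7 and 4.47 RPKM in DZNep. FANCA differed by -0.45 (log2), SE 0.0521, adjusted p = 0.00099. The glycosylase NEIL3 fell from 8.46 ± 1 to 5.4 ± 0.52 RPKM. XRCC5 (KU80), of end joining, was at 15.1, 14.9 and 13.3 RPKM in DMSO and 19.7, 20.7 and 22.2 RPKM in DZNep. XRCC5 differed by 0.51 (log2), SE 0.065, adjusted p = 0.00157. LIG3 rose from 10.4 ± 0.218 to 13.5 ± 0.378 RPKM and XRCC1, the partner of LIG3, fell from 20.9 ± 1.26 to 15.4 ± 0.506 RPKM. Retinoblastoma-like RBL2 rose from 7.83 ± 0.243 to 9.43 ± 0.132 RPKM.

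Among chromatin genes changes were scattered. In Polycomb repressive complex 1, 7 of 27 genes fell and 3 rose, or 25.9% and 11.1% against 11.1% and 16.6% of all genes. The count of falls was 3 without DMSO 2 and 4 without DZNep 3, and of rises 1 without DMSO 2 or DZNep 1. The ubiquitin ligase RING1 rose from 9.85 ± 0.216 to 13 ± 1.03 RPKM, and CBX6 and PCGF3 fell from 12.2 ± 0.787 to 9.32 ± 0.528 RPKM and 17.9 ± 1.78 to 13.3 ± 0.813 RPKM. In Polycomb repressive complex 2, 3 of 12 fell and 1 rose, or 25% and 8.33% against the same shares of all genes. There was 1 fall without DMSO 2 and 0 rises without DZNep 2. EZH2 itself went from 29.1 ± 1.78 to 23.8 ± 1.19 RPKM (adjusted p = 0.0652 without DMSO 2). EZH2 differed by -0.28 (log2), SE 0.0612, adjusted p = 0.0142. SUZ12, a core subunit, fell from 22.6 ± 0.612 to 19.1 ± 0.345 RPKM, and the accessory subunit PHF19 from 1.77 ± 0.158 to 1.25 ± 0.0661 RPKM (adjusted p = 0.0593 without DMSO 2, adjusted p = 0.0625 without DZNep 2). EZH1, the related enzyme, rose from 14.3 ± 1.03 to 18.1 ± 1.22 RPKM (adjusted p = 0.0514 without DZNep 2). The subunits EED and RBBP4 were not called (adjusted p = 0.259 and adjusted p = 0.919). GADD45G, linked to DNA demethylation and stress, was at 11.7, 11.8 and 12 RPKM in DMSO and 8.39, 8.35 and 7.91 RPKM in DZNep. GADD45G differed by -0.47 (log2), SE 0.0454, adjusted p = 0.00045. Its relative GADD45B rose from 27.2 ± 1.16 to 35.5 ± 1.19 RPKM. The demethylase KDM1B rose from 7.2 ± 0.403 to 9.78 ± 0.344 RPKM, the remodelling ATPase SMARCA2 from 14.2 ± 0.353 to 18.3 ± 0.347 RPKM, and the deacetylase HDAC7 fell from 14.1 ± 0.811 to 10.5 ± 0.775 RPKM. AIRN, the imprinted antisense transcript of Igf2r, fell from 9.2 ± 0.551 to 6.46 ± 0.223 RPKM; the kit marks strand, but the sources used here do not state whether the counting used it.

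MYC was at 53.7, 55.4 and 51.3 RPKM in DMSO and 72.7, 70.8 and 65 RPKM in DZNep. MYC differed by 0.37 (log2), SE 0.0581, adjusted p = 0.00375. The sources used here do not state how far reads of the transgene count toward MYC. MXD4, which competes with MYC for MAX, rose from 25.8 ± 1.51 to 36.3 ± 2.27 RPKM. Of 29 cell death genes 7 rose and 1 fell, or 24.1% and 3.45% against 16.6% and 11.1% of all genes. The count of rises was 3 without DMSO 2 or DZNep 2. Among those that rose, BID went from 15.9 ± 0.385 to 21.6 ± 0.337 RPKM, BCL2 from 10.8 ± 0.0601 to 12.8 ± 0.431 RPKM and DIABLO, the inhibitor of caspase inhibitors, from 13.3 ± 0.389 to 16.8 ± 1.33 RPKM. Among matrix genes TIMP3, an inhibitor of metalloproteases, was at 4.36, 5.45 and 5.51 RPKM in DMSO and 11.3, 10.8 and 10.8 RPKM in DZNep. TIMP3 differed by 0.98 (log2), SE 0.0795, adjusted p = 0.000209. MMP7 (matrilysin) rose from 688 ± 57.1 to 1042 ± 29.8 RPKM and SERPINE2 from 18.7 ± 1.38 to 30.3 ± 1.72 RPKM, and the protease ADAM8 fell from 83.8 ± 6.91 to 56.1 ± 4.42 RPKM.

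Next to MCAM, some genes known from mesenchymal or contractile cells rose. Of 19 such genes 6 rose and 4 fell, or 31.6% and 21.1% against 16.6% and 11.1% of all genes. There were 2 falls without DMSO 2. THBS1 (thrombospondin) was at 70.1, 82.4 and 82.8 RPKM in DMSO and 123, 119.6 and 114 RPKM in DZNep. THBS1 differed by 0.60 (log2), SE 0.0729, adjusted p = 0.00126. The intermediate filament protein SYNM rose from 3.7 ± 0.198 to 5.53 ± 0.328 RPKM, and TPM2 and SMTN, of the actin cytoskeleton, fell from 68.9 ± 2.67 to 52.3 ± 3.62 RPKM and 44.6 ± 5.08 to 31.9 ± 2.33 RPKM. Of 13 fibroblast and smooth muscle markers 1, DCN, passed the filter, and COL1A2, COL3A1, DPT, DES and THY1 were listed at 0 in every library. DCN, a small leucine-rich proteoglycan, was at 3.31, 2.54 and 2.44 RPKM in DMSO and 5.73, 5.68 and 6.92 RPKM in DZNep. DCN differed by 0.92 (log2), SE 0.104, adjusted p = 0.000899. Of the 34 collagen genes outside types IV, VII, XVII and XVIII 0 reached the filter. The part of such cells in these results was not tested. EGFL7, the endothelial marker above the filter, was at 2.53 ± 0.346 RPKM in DMSO and 2.11 ± 0.22 RPKM in DZNep (adjusted p = 0.161).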

How the data were processed

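RNA was extracted with TRIzol and sequenced after TruSeq Stranded mRNA library preparation from 500 ng, per the labels' protocols. The submitters' processing notes name bcl2fastq 2.18, STAR, Cufflinks and the build mm9, with no further settings. The authors deposited 1 table for this experiment, with values on a log2 scale that were read as log2(RPKM + 1); raw counts were not used here, so the depth of each library is unknown. Genes with a mean RPKM of at least 1 were tested with limma 3.58.1 (R 4.3.3) with a mean-variance trend, 3 libraries against 3, no covariates, and Benjamini-Hochberg adjustment over all 11143 genes at 0.05. The fit was tested on simulated data. Alternatives were a filter of 5 RPKM, no filter, no trend, a pseudocount of 0.1, quantile and trimmed mean scaling, robust variances, leaving out short RNA genes, the replicate number as a block, and leaving out each library.

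The gene lists (79 in use), the 31 families defined by symbol and the genes in view were chosen with earlier results of these data known. Genes named in the text come from a rule: the 12 largest rises and falls among called genes whose groups do not overlap, up to 4 called members per direction and up to 2 uncalled members of highest RPKM in each list, all members of lists of up to 10, markers above the filter, and further members that complete a pathway. Those that stayed called with any 1 library left out were preferred. Promoter windows are RefSeq's, on GRCm38.p6. Files hold symbols in capitals, which are printed as given. Some members of the lists are not reported here.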

Additional observations from a re-analysis of the deposited data

How the results depend on the processing

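The sources used here do not state whether the replicate numbers pair the libraries. Deviations of same-numbered libraries from their group means correlated at 0.059, 0.059 and -0.068 across genes. Differently numbered libraries correlated at -0.146 to 0.095. With 3 libraries per group this check cannot settle whether cultures or animals were paired. With the replicate number as a block 1016 genes rose and 594 fell, and among the 1818 tested members of the lists 199 rose and 134 fell, against 341 and 264 without the block. With 1 library left out, the number that rose ranged from 953 to 2055 and the number that fell from 529 to 1253; for list members the ranges were 192 to 387 and 119 to 255. Of the 3088 calls 47.4% were kept without DMSO 2, 55.1% without DZNep 2, 51.8% with the block, 91.1% under quantile normalization and 92.7% under trimmed mean scaling, and 0 were called in the other direction in any of the 15 alternatives run. Every alternative reuses the same libraries, so a reversal was hardly possible and this 0 is no evidence about direction. Of the 386 called genes named by the rule, 232 were kept without DMSO 2 and 258 without DZNep 2. Both overall counts moved by over 1.5 times with the block, without DMSO 2 and without DZNep 2, and the number that rose also did without DMSO 3, at 1188. The remaining settings left both within 1.5 times the reported ones. No read depth is known, so no counting limit can be set for low values.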
